A study of Mus musculus with 2 samples.

Results

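The Ddn-rich neuropil spots are 140 spots of a mouse brain section, most of them near the granule cells of the dentate gyrus. They are the 140 spots with the highest mean log-scaled count of 6 genes, among the 1761 tissue spots that held 500 to 10000 unique molecular identifiers (UMIs), out of 2487 tissue spots in all. The 6 genes were Ddn (dendrin, a postsynaptic protein), Gng7 (a G protein gamma subunit), Btbd3 (which guides dendrite orientation), Ppp1r3c (which targets a phosphatase to glycogen), Thrsp (a regulator of fat synthesis) and Gldc (the glycine decarboxylase of astrocytes). These genes chose the spots, so their levels are not results here. The remaining 1621 spots of the same depth range are the main comparison and are called the other spots.

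The series holds brain sections of male mice aged 6 months, profiled with Visium CytAssist. In this assay probe pairs are ligated on their transcripts and transferred to a grid of barcoded spots. The labels give 1 section of G2-3, a transgenic line, and 1 section of wild-type (WT) mice. The labels used here do not name the promoter that drives the transgene. The count matrices under both labels were the same file byte for byte, so they were taken as 1 library, no genotype was assigned to it, and G2-3 could not be compared with WT. The spots over tissue were taken from the position list of the WT label. The position lists of the labels differed, that of G2-3 marked 751 tissue spots without counts, and which list belongs to the matrix was not settled. Of the members, 135 were tissue spots in both lists. All 2722 barcodes were therefore shared, and all values below come from spots of this 1 library. Spots are not replicates, so no test was made, and every 95% interval covers counting error only.

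The dentate gyrus has a dense band of granule cell bodies whose dendrites fill the molecular layer beside it. Such neuropil holds few neuronal cell bodies and many dendrites, axon terminals and astrocyte processes. A set of neuronal mRNAs, of which Camk2a and Map2 are textbook cases, is carried into dendrites and translated there, whereas most neuronal mRNAs stay near the nucleus. Astrocytes extend fine processes through the same layer and clear glutamate from its synapses.

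The Ddn-rich spots were shallow. They held 577568 UMIs in all, from 1813 to 8658 per spot with a median of 3669, and a median of 2094.5 genes. The other spots held 8957696 UMIs, from 1183 to 9980 per spot with a median of 5311. After every spot was thinned to 1000 UMIs, the median number of genes was 762 in Ddn-rich spots and 790 in the other spots. The mean depth of a Ddn-rich spot was 0.747 of that of the other spots. A spot can hold several cells or parts of cells, so fewer cells of a type and less RNA per cell cannot be told apart in any value below.

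The score that chose the spots had no gap at its threshold. It was 2.08 in the highest spot, had a median of 1.10 over the members, and was 0.828 in the lowest member and 0.827 in the highest spot left out. At rank 130 it was 0.848 and at rank 150 it was 0.804. The median over the other spots was 0.187. When the 140 spots were chosen by Ddn, Gng7 and Btbd3 alone, 117 of the members were chosen again, and by Ppp1r3c, Thrsp and Gldc alone, 86. Both triplets together chose 66 spots in common, so the neuronal and the glial genes of the score marked overlapping but not identical areas.

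A pair of further sets of spots served as anatomical neighbours. The 55 granule spots had the highest score of C1ql2, Pcdh20, Prox1 and Dsp, 4 genes of dentate granule cells, among tissue spots of at least 500 UMIs that were not members. The 140 pyramidal spots had the highest score of Gpr161, Pde11a and Mpped1 among the rest. Both sets were far deeper, with medians of 30411 UMIs in granule spots and 10917 UMIs in pyramidal spots, since neither had an upper bound on UMIs. Among the other spots were 4 of the granule spots and 59 of the pyramidal spots.

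The place of the spots did not enter the score. The members were chosen with earlier results of these data known, so their place is given as description. Of the 140 members, 118 formed 1 contiguous patch across array rows 21 to 35 and array columns 43 to 84, and the second largest of the 14 patches had 4 spots. In distance, 136 members (97.1%) lay within 10 grid steps of a granule spot, against 313 of the other spots (19.3%). The median distance was 4 steps, 29 members touched a granule spot, and the farthest lay 24 steps away. In turn, 27 of the 55 granule spots touched a member. Most of the patch lay above and to the right of the granule band on the grid, inside an arc of pyramidal spots, with a median of 3 steps to the nearest of them. The name around the dentate gyrus thus describes nearness to the granule band, not a ring. At upper columns, split at column 69, there were 68 members and no granule spot. Outside the patch lay 22 members, 4 of them more than 10 steps from any granule spot.

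**Figure D1:**
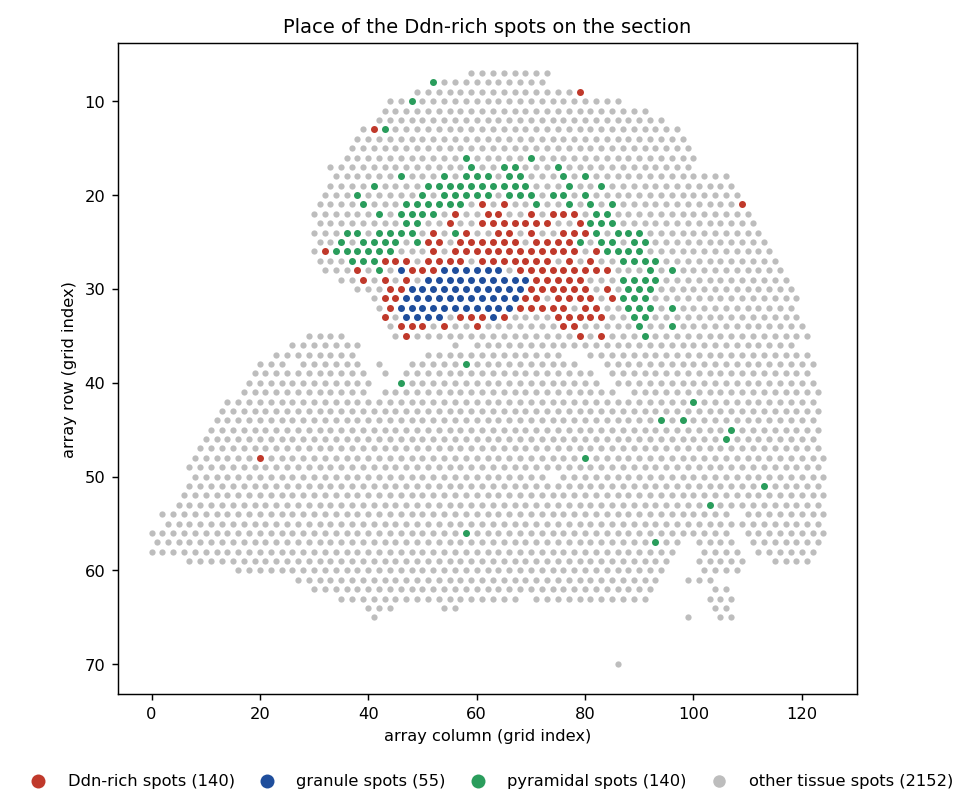
Spots of the section by array column and array row (grid indices, rows numbered from the top), coloured as 140 Ddn-rich spots, 55 granule spots, 140 pyramidal spots and all other tissue spots, with no bound on UMIs for the last. The largest patch of Ddn-rich spots has 118 spots and lies mostly above and to the right of the granule band, inside the arc of pyramidal spots. Smaller patches and single spots lie elsewhere.

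Dendritically localised mRNAs set the Ddn-rich spots apart from the other spots. The list of 16 such genes, which leaves out Ddn, took 1.80% of the UMIs of Ddn-rich spots (95% binomial interval, Clopper-Pearson, 1.77% to 1.83%) and 0.760% in the other spots (0.754% to 0.766%). Per spot the share was 0.271% at the lowest, 1.84% at the median and 4.02% at the highest in Ddn-rich spots, and 0%, 0.533% and 3.39% in the other spots. The ranges overlapped, but 99.3% of the Ddn-rich spots lay above the median of the other spots. The same list took 0.857% in granule spots and 0.920% in pyramidal spots.

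**Figure D2:**
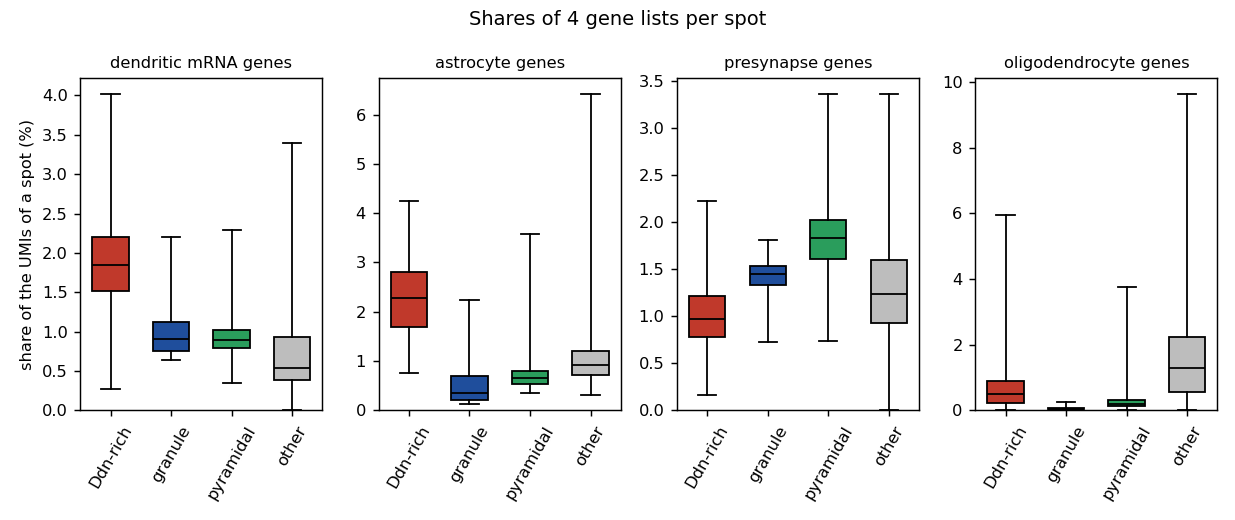
Share of the UMIs of a spot (%) taken by the dendritic mRNA, astrocyte, presynapse and oligodendrocyte gene lists in Ddn-rich, granule, pyramidal and other spots. Boxes span the quartiles with a line at the median and whiskers reach the lowest and highest spot; the dendritic and astrocyte medians of 1.84% and 2.28% in Ddn-rich spots are the highest of the 4 sets.

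Against the other spots, all 16 genes of the dendritic list had at least 100 UMIs over both sets, 12 were higher in Ddn-rich spots, 8 of them by at least 2-fold, and 1 was lower by at least 2-fold. Over all 9508 genes compared, 41.8% were higher, 6.27% were at least 2-fold higher and 11.2% at least 2-fold lower. The median log2 ratio of the list was 0.97, against -0.13 over all genes compared. Ratios are of counts summed over the spots of a set and given as CPM, a gene's counts scaled to the same total in each set. Scaling by the trimmed mean (TMM) added 0.12, 0.31 and 0.22 to every log2 ratio over other, granule and pyramidal spots. With it, the 2-fold threshold over other spots was passed upward by 780 and downward by 867 genes, in place of 596 and 1062. The 6 genes that chose the members came from these same spots, so all ratios are descriptions. Ddn was 1 of them, so the direction of the dendritic list was partly set by the choice of spots.

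Camk2a, the alpha subunit of calcium/calmodulin-dependent kinase II, had the largest ratio of the list. Its level was 4763 CPM (exact Poisson interval 4587 to 4944) in Ddn-rich spots and 1000 CPM (980 to 1021) in the other spots, a log2 ratio of 2.25 (2.19 to 2.31). Per spot it took 0, 45.1 and 288 of 10000 UMIs at the lowest, median and highest of the Ddn-rich spots, and 0, 3.91 and 158 in the other spots. The sets overlapped at both ends, and the median of the Ddn-rich spots was far above that of the other spots.

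Scaffold and signalling mRNAs of the spine followed. Ppp1r9b (spinophilin, which binds actin and a phosphatase in spines) had a log2 ratio of 1.74 (1.64 to 1.83). Agap2, a GTPase-activating protein, had 1.72 (1.42 to 2.01), and Psd, an exchange factor for ARF6, had 1.65 (1.58 to 1.73). Psd took a median of 26.5 of 10000 UMIs per Ddn-rich spot and 5.66 per other spot. Map2, the microtubule protein of dendrites, was named after its values were seen and had 1.23, with a median of 20.9 of 10000 UMIs per Ddn-rich spot and 11.0 per other spot.

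Not all dendritic mRNAs were high in these spots. Shank1 (a postsynaptic scaffold, log2 ratio 0.12), Calm3 (a calmodulin, 0.08) and Bdnf (a neurotrophin, -0.04) had intervals that included 0. Cabp1 (a calcium-binding protein, -1.48), Arc (an activity-induced regulator of AMPA receptors, -0.90) and Nrgn (neurogranin, a calmodulin-binding protein, -0.50) were lower in Ddn-rich spots, and these were named after their values were seen. For Nrgn the direction turned with the spots compared: its log2 ratio was 1.32 among spots at lower array columns and 0.19 against other spots of matched depth.

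**Figure D3:**
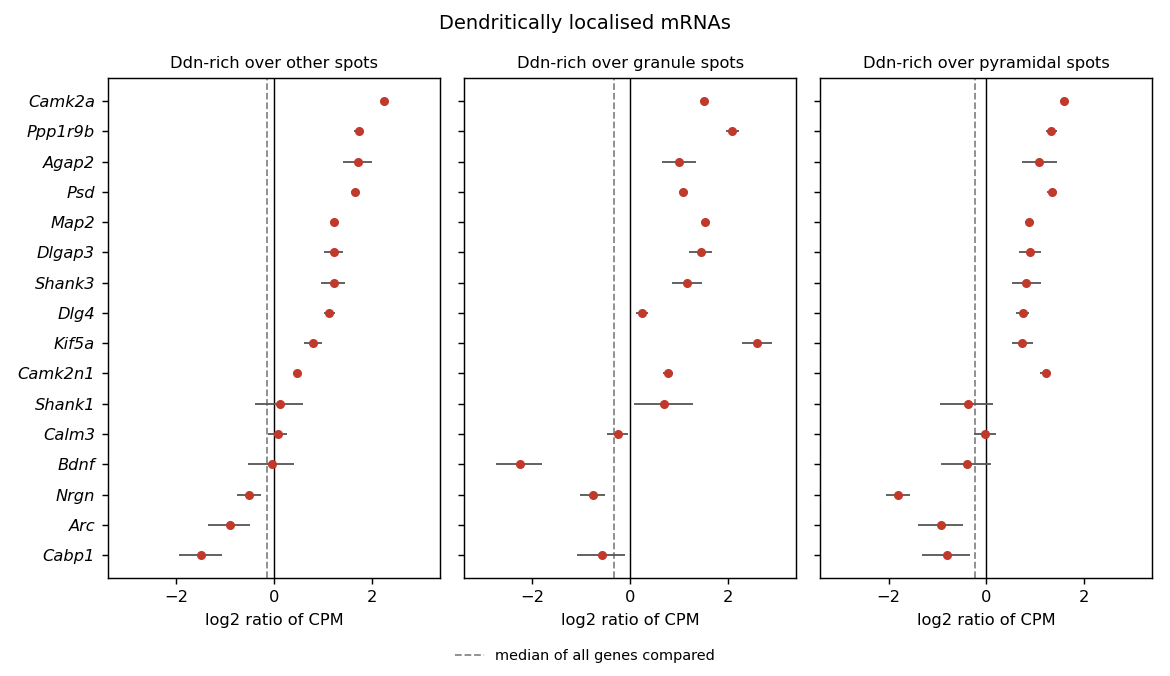
Log2 ratio of CPM for the dendritic mRNA list, Ddn-rich spots over other spots (left), granule spots (middle) and pyramidal spots (right). Points are ratios, bars are 95% intervals for counting error, the dashed line is the median of all genes compared, and a gene without a point had under 100 UMIs over both sets. Camk2a, Ppp1r9b, Agap2, Psd, Map2, Dlgap3 and Shank3 lie well to the right of 0 in all panels, and Cabp1 and Nrgn to the left in all panels, although Nrgn turned to 1.32 over other spots at lower columns and 0.19 over other spots of matched depth. Counted per spot, the list medians over granule and pyramidal spots turned to -1.96 and -0.67.

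Transcripts of other synaptic proteins had lower median ratios than the dendritic list. Of 26 genes of the excitatory postsynapse that were compared, 18 were higher in Ddn-rich spots, but 3 reached 2-fold and the median log2 ratio was 0.23. That median was below 0 when UMIs had no upper bound (-0.19), per spot without scaling (-0.20) and among spots at upper columns (-0.07). Under other settings it reached 0.90. It was 0.25 against other spots within 12 grid steps of a granule spot. There 15 of 22 genes were higher, against 41% of all genes compared, and 3 reached 2-fold. In share of UMIs, 84.3% of the Ddn-rich spots lay above the median of the other spots. Dlgap1 and Dlg2, which encode scaffold proteins, had log2 ratios of 1.36 and 1.16, and Cnih2, an AMPA receptor auxiliary subunit, had 1.19. Grin1, the obligate subunit of NMDA receptors, was the opposite case, with 379 CPM in Ddn-rich spots and 874 CPM in the other spots (log2 ratio -1.20).

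Genes of the inhibitory postsynapse had a median log2 ratio of 0.08 over 11 genes, 0 of them at least 2-fold higher and 2 at least 2-fold lower. Gabrb2, a subunit of GABA-A receptors, was at -1.27 (-2.73 to -0.12). Genes of the presynapse were mostly lower. Their share was 1.06% of the UMIs in Ddn-rich spots and 1.41% in the other spots, and 18 of 22 were lower, 9 of them by at least 2-fold, with a median of -0.63. The vesicular transporters Slc17a6 (glutamate, 2 UMIs in Ddn-rich spots and 393 in the other spots) and Slc32a1 (GABA, 4 UMIs and 282 UMIs) had log2 ratios of -3.66 (-6.71 to -1.80) and -2.18 (-4.07 to -0.81). Sv2a, a vesicle protein, had -1.79 and Rab3a, a vesicle GTPase, had -1.69. The 4 higher genes had intervals above 0, and Cplx2, the highest, was at least 2-fold higher. Against other spots within 12 grid steps of a granule spot, the median was -0.29 over 20 genes. There 15 were lower, 4 of them by at least 2-fold, and 5 were higher, 2 of them by at least 2-fold. Named after their values were seen, Cplx2 had 1.36, Bsn 1.01 and Slc17a7, another vesicular glutamate transporter, 0.60.

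Astrocyte transcripts were higher in the Ddn-rich spots as a group. All 17 astrocyte genes compared were higher than in the other spots, 10 of them by at least 2-fold, and the median log2 ratio was 1.02. None of them was in the score, but the score held glial genes, with Gldc of astrocytes among them. The direction of the astrocyte list was thus partly set by the choice of spots. Their summed share was 2.13% of the UMIs (2.10% to 2.17%) in Ddn-rich spots and 0.966% (0.960% to 0.972%) in the other spots. Per spot it was 0.758%, 2.28% and 4.25% at the lowest, median and highest of the Ddn-rich spots, and 0.309%, 0.917% and 6.42% in the other spots. The highest other spots thus exceeded every Ddn-rich spot.

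The glutamate transporters of astrocytes were among the highest of this list. Slc1a2 (GLT-1) had 7329 CPM (7110 to 7553) in Ddn-rich spots and 2421 CPM (2389 to 2453) in the other spots, a log2 ratio of 1.60 (1.55 to 1.65). Slc1a3 (GLAST) had 583 CPM in Ddn-rich spots and 126 CPM in the other spots, a log2 ratio of 2.21 (2.03 to 2.38). Both are the carriers that take up synaptic glutamate. Mlc1, a membrane protein of astrocyte endfeet, had 1.49, and the water channel Aqp4 had 1.46. The intermediate filament genes Vim and Gfap, which increase in reactive astrocytes, had 1.76 and 1.22. Gfap was no higher than in the other spots within 12 grid steps of a granule spot, as given below.

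Since 3 of the score genes act in glycogen, fat and glycine metabolism, the other genes of these pathways were counted. Of 8 glycogen genes, 5 were higher, 2 of them by at least 2-fold, with a median log2 ratio of 0.60. That median was -0.0011 among spots at lower columns, and 0.04 over the 4 genes that could be compared with near spots, none of them past 2-fold. Ppp1r3g, another subunit that targets the phosphatase to glycogen, had 30 UMIs in Ddn-rich spots and 80 in the other spots, a log2 ratio of 2.54 (1.88 to 3.16). Ugp2, which makes UDP-glucose, had 1.54, and Pygb, the brain glycogen phosphorylase, had 0.90. Of 8 lipogenic genes, 3 were higher and none reached 2-fold in either direction (median -0.03), with Acly, which makes cytosolic acetyl-CoA, at -0.61. The 2 glycine cleavage genes compared had a median of -0.01. Of these lists, the glycogen one had members that were at least 2-fold higher and the others had none.

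Microglial and complement transcripts were also higher. Of the 12 homeostatic microglia genes, 7 had 100 UMIs over both sets, and all 7 were at least 2-fold higher in Ddn-rich spots (median log2 ratio 1.34). The counts were small. P2ry12, the microglial ADP receptor, had 39 UMIs in Ddn-rich spots (67.5 CPM, 48.0 to 92.3) and 185 in the other spots (20.7 CPM, 17.8 to 23.9), a log2 ratio of 1.71 (1.17 to 2.21). Siglech, a sialic acid receptor, had 1.68, Cx3cr1, the fractalkine receptor, had 1.45, and Csf1r, the receptor that keeps microglia alive, had 1.34.

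Of 14 genes linked to microglial phagocytosis, 11 were higher, 5 of them by at least 2-fold, with a median of 0.57, and against near spots 0 of 12 reached 2-fold and the median was 0.25. Apoe, which astrocytes also make, had 1.53, Mertk, an engulfment receptor, had 1.44 and Tyrobp, a microglial adaptor, had 1.38. Spp1, secreted by activated microglia among other cells, was lower (-1.86), with 5 UMIs in Ddn-rich spots and 281 in the other spots. All 5 complement genes compared were higher, 3 of them by at least 2-fold. Itgam, a complement receptor subunit, had 1.22, and the C1q chains C1qa, C1qb and C1qc had 1.12, 1.06 and 0.99.

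Myelin transcripts were lower in Ddn-rich spots. All 11 oligodendrocyte genes compared were lower, 8 of them by at least 2-fold, and the median log2 ratio was -1.40. Their share was 0.519% of the UMIs in Ddn-rich spots (0.0269%, 0.491% and 5.96% at the lowest, median and highest spot) and 1.32% in the other spots (0%, 1.29% and 9.63%). Mobp, a myelin protein, had 1048 CPM in Ddn-rich spots and 2807 CPM in the other spots (log2 ratio -1.42). Mag, another myelin protein, had -1.86, and the counts of Ermn (4 UMIs in Ddn-rich spots, 313 in the other spots) and Ugt8a (4 UMIs and 255 UMIs) gave -2.33 (-4.22 to -0.96) and -2.04 (-3.93 to -0.67). Genes of oligodendrocyte precursors had a median of 0.42 over 8 genes with none past 2-fold, and of -0.17 over 4 genes against near spots.

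Vessel, meningeal and blood transcripts were higher in Ddn-rich spots than in the other spots of the section, unevenly so, and the meningeal, blood and mural medians were just below 0 against near spots, as given below. All 9 meningeal genes were higher (7 by at least 2-fold, median 1.16), as were all 5 mural genes (4 by at least 2-fold, 1.19), all 4 blood genes (4 by at least 2-fold, 1.26) and all 10 endothelial genes (3 by at least 2-fold, 0.93). The prostaglandin synthase gene Ptgds held 86.7% of the UMIs of the meningeal list in Ddn-rich spots and 89.9% in the other spots. Examples were the amino acid transporter Slc6a20a at 1.72, the matrix genes Dcn at 1.63 and Mgp at 1.54, smooth muscle Acta2 and Tagln at 1.48 and 1.27, and the endothelial genes Slco1a4 and Cdh5 at 1.16 and 1.09. The haemoglobin genes Hbb-bt, Hbb-bs and Hba-a2 had 1.56, 1.38 and 1.14, and reads of such near-identical copies may be split uncertainly between them. The 14 members with the most UMIs of a list held 66.9% of the meningeal, 55.1% of the blood and 50.7% of the mural UMIs of all members, but 16.4% of the astrocyte and 18.5% of the dendritic UMIs. The 14 deepest members held 18.5% of all UMIs.

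Without the 14 members richest in meningeal and blood genes, a set defined after the data were seen, the dendritic, astrocyte and homeostatic microglia medians were 1.05, 1.03 and 1.46. The meningeal, blood and mural medians were 0.69, 0.52 and 0.50 without them. Whether blood, vessel or meningeal RNA had a part in the other results was not tested.

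Granule cell transcripts were higher in Ddn-rich spots than in the other spots. Of 8 granule cell genes compared, 7 were higher than in the other spots, 4 of them by at least 2-fold (median 1.08). Examples were C1ql2 (a synaptic organiser of mossy fibres, 2.47), Prox1 (the transcription factor of granule cells, 2.41), the protocadherin Pcdh20 (1.95) and Fam163b (1.37), of which C1ql2, Prox1 and Pcdh20 also define the granule spots and are given as description. The excess was uneven. The 14 members with the most UMIs of this list held 39.3% of its UMIs over all members. C1ql2 had 0 UMIs in 74 members and Prox1 in 86. In share of UMIs, 70.7% of the members lay above the median of the other spots. Of 11 pyramidal cell genes, 4 were higher and 7 lower, 3 of them by at least 2-fold, and the median of -0.26 was 0.42 among spots at lower columns. Their summed share was 0.181% of the UMIs in Ddn-rich spots and 0.164% in the other spots. The highest was Nnat, named after its value was seen, at 0.53 over the other spots and -0.61 over near spots, and the lowest included Cdh24, a cadherin, at -2.41 and Neurod6, a transcription factor, at -1.18. Genes of striatal projection neurons and of cortical layers had medians of -0.43 and -0.43 over 9 and 8 genes. The 6 dopaminergic genes summed to 2 UMIs in Ddn-rich spots and 1260 UMIs in the other spots. Of 10 GABAergic genes, 3 were higher and 7 lower, 4 of them by at least 2-fold, among these Pvalb (-3.08) and Sst (-1.59), a calcium buffer and a peptide of interneurons. Reln, which encodes reelin, and Vip, another interneuron peptide, were named after their values were seen and were higher (0.90 and 0.82). The pyramidal and GABAergic counts stand beside 41.8% higher and 11.2% at least 2-fold lower over all genes compared.

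Of 7 immediate early genes compared, 2 were higher and 5 lower, beside 41.8% higher over all genes compared. At least 2-fold lower were 3 of them, beside 11.2% over all genes. These were Fos at -2.40 on 4 UMIs in Ddn-rich spots, Egr1 at -1.79 and Nr4a1 at -1.41, all of them activity-induced transcription factors. The median was -0.98, and -0.06 over the 4 genes that could be compared with near spots. The 13 genes of mitochondrial respiration had a median of -0.32 with none past 2-fold, and the 10 synuclein and chaperone genes had -0.28. Of these 10, 3 were higher, 1 of them with an interval above 0, and 7 were lower. The list was thus not uniform. At least 2-fold lower were 3 of them, Sncg at -2.26, Uchl1 at -1.51 and Sncb at -1.24.

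The genes with the largest ratios over the other spots joined these groups with others outside the lists. The highest was Glis3, a zinc finger transcription factor, with a log2 ratio of 3.92 (3.52 to 4.31). It had 187 CPM (153 to 226) in Ddn-rich spots and 12.4 CPM (10.2 to 14.9) in the other spots. Its UMIs were 0 in 77 of the members. Pooled over each set, Glis3 took 1.87 of 10000 UMIs in Ddn-rich spots and 2.01 in granule spots. Its excess was thus not seen against granule spots. Log2 ratios of 2.80 for Sowaha, 2.47 for the integrin Itga8, 2.39 for Dio2, the enzyme that activates thyroid hormone in astrocytes, 2.38 for the tetraspanin Tspan18, 2.34 for Parvg and 2.29 for Rfx3, a transcription factor of ciliated cells, followed. Nsmf, a messenger from synapse to nucleus, had 2.19. Nsmf took a median of 8.85 of 10000 UMIs per Ddn-rich spot and 1.38 per other spot. The 14 highest also held Ppp1r3g, C1ql2, Prox1, Camk2a and Slc1a3 from the lists above.

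The lowest ratios rested on few UMIs in Ddn-rich spots. Tph2, which makes serotonin, had 0 UMIs in Ddn-rich spots and 1242 in the other spots, at least 26.7-fold lower when 0 is set to 3 counts over the set. Syt2, a calcium sensor of fast synapses, had 2 UMIs in Ddn-rich spots and 862 in the other spots, a log2 ratio of -4.80 (-7.84 to -2.94), and Cartpt, a neuropeptide gene, had 6 and 1999 (-4.43). The rest of the 14 lowest were Irx2 (-4.60), Fam131c (-4.42), Sema3e (-4.42), Barhl1 (-4.17), Plpp2 (-4.12), Ubap1l (-4.01), Myl4 (-3.93), Mrap2 (-3.85), Cpne9 (-3.85), Pstpip2 (-3.82) and Fndc5 (-3.81), each with at most 4 UMIs in Ddn-rich spots. Irx2 and Barhl1 are transcription factors, and Sema3e is an axon guidance cue.

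Because the other spots span the whole section, the Ddn-rich spots were also set against the 426 other spots that lay within 12 grid steps of a granule spot (2134427 UMIs, median 4797.5 per spot), a set chosen after the data were seen. Fewer genes stood apart there. Of 5511 genes compared, 41% were higher, 2.4% at least 2-fold higher and 4.99% at least 2-fold lower, and the median log2 ratio of all of them was -0.10. The dendritic list had a median of 0.97 over 16 genes, 8 of them at least 2-fold higher, and the astrocyte list 0.73 over 17 genes, 2 of them at least 2-fold higher. The 4 homeostatic microglia genes that could be compared had a median of 1.00 and the 9 oligodendrocyte genes -1.27.

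Other groups lost all or part of their excess against these near spots. The medians of the meningeal, blood and mural lists were -0.14, -0.09 and -0.05, and Gfap had 1139 CPM in Ddn-rich spots and 1160 CPM in the near spots (log2 ratio -0.03, -0.15 to 0.10). C1qa kept a smaller excess, 0.54 (0.33 to 0.73). Tyrobp had 0.35 (-0.27 to 0.93), and the complement factor C4b, which astrocytes and oligodendrocytes make, had -0.44. The glutamate transporters kept positive ratios, 1.35 for Slc1a2 and 1.58 for Slc1a3, while Aqp4 and Vim had 0.40 and 0.49. These genes, and the ones named next, were picked after their values were seen.

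The genes with the 10 highest ratios over the near spots were led by Glis3 (3.00), Dio2 (2.42), Sowaha (2.19), C1ql2 (2.02), Rfx3 (2.0), Camk2a (1.87) and Prox1 (1.81), all of them also among the 14 highest over all other spots. The other 3 were Smim3 (1.80), Neurl1a (1.73), a ubiquitin ligase, and Cnksr2 (1.72), a postsynaptic scaffold. The lowest was Six3, a forebrain transcription factor, with 2 UMIs in Ddn-rich spots and 276 in the near spots (-5.22, -8.28 to -3.36). The calcium buffer genes Calb2 (-2.74) and Pvalb (-2.47) and the thalamic transcription factor gene Tcf7l2 (-2.49) were also among the 10 lowest.

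**Figure D4:**
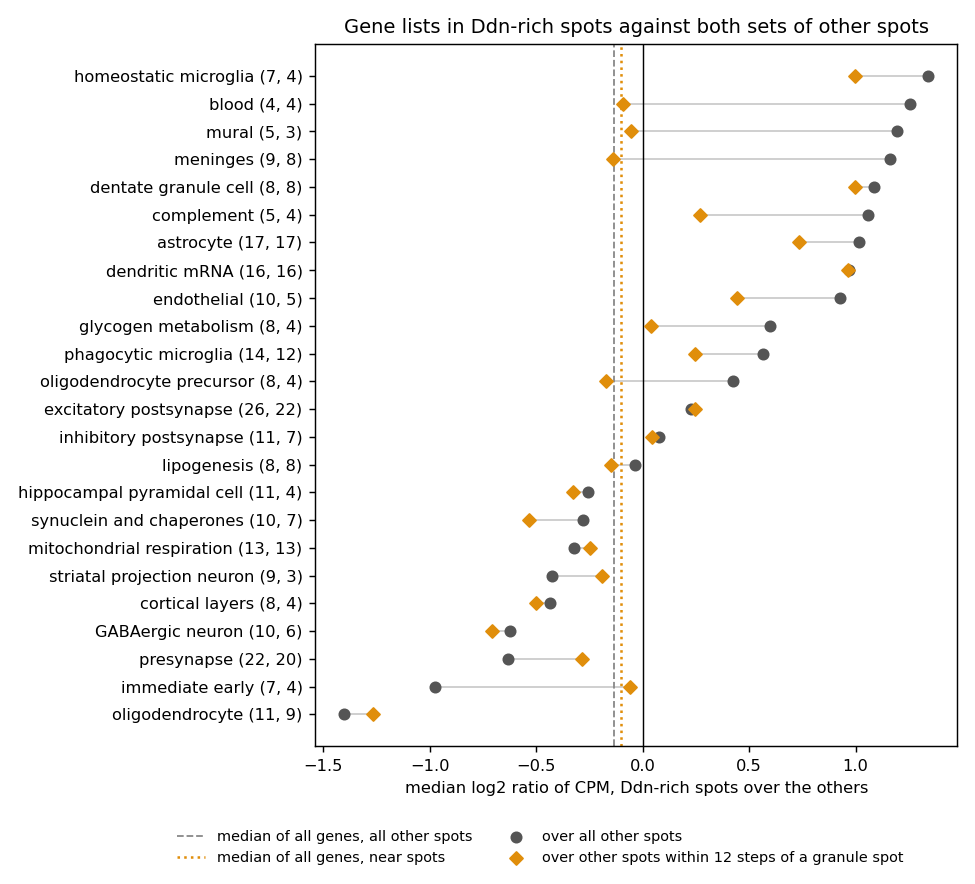
Median log2 ratio of CPM of each gene list, Ddn-rich spots over all other spots (circles) and over the other spots within 12 steps of a granule spot (diamonds), with the numbers of genes compared in brackets in that order. Lines mark 0 and the medians of all genes compared; the dendritic median is 0.97 against both sets, while the meningeal, blood and mural medians of 1.16, 1.26 and 1.19 over all other spots stand beside -0.14, -0.09 and -0.05 over the near spots.

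The comparison with granule spots sets the Ddn-rich spots against spots rich in granule cell transcripts. Which neurons the dendritic mRNAs came from was not tested. The mean depth of a Ddn-rich spot was 0.128 of that of a granule spot and 0.367 of that of a pyramidal spot, so a ratio of CPM and a ratio per spot can differ in sign. Of 15 dendritic genes compared, 11 were higher in Ddn-rich spots as a share of UMIs, 8 of them by at least 2-fold, and the median log2 ratio was 1.00, which turned to -1.96 when counts were taken per spot without scaling. Over all 4782 genes compared, 34.9% were higher, 10.3% were at least 2-fold higher and 18.4% at least 2-fold lower, with a median of -0.33. These were 494 and 881 genes, and 699 and 442 with TMM scaling.

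Among the dendritic genes Kif5a, a kinesin motor, had 466 CPM (412 to 525) in Ddn-rich spots and 77.2 CPM (64.9 to 91.3) in granule spots, a log2 ratio of 2.59 that was -0.37 per spot. Ppp1r9b had 2.09, Map2 1.54 and Camk2a 1.50 by CPM, and -0.87, -1.43 and -1.46 per spot. Bdnf went the other way with 72.7 CPM in Ddn-rich spots and 347 CPM in granule spots (-2.26, -2.74 to -1.80). The dendritic list was thus not uniform, with a motor and scaffold genes at one end and the neurotrophin at the other. Camk2a was named here after its values were seen.

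Receptor and scaffold genes of the excitatory postsynapse were lower than in granule spots. Of 24 compared, 3 were higher and 15 were at least 2-fold lower, and the median was -1.21. They took 0.572% of the UMIs in Ddn-rich spots and 1.17% in granule spots. Gria1, an AMPA receptor subunit, had 322 CPM in Ddn-rich spots and 1100 CPM in granule spots (-1.77), and the NMDA receptor subunit Grin2b had -1.77, the scaffold gene Dlg3 -1.77 and the adhesion gene Lrrtm1 -2.29. The exception of largest size was Dlg2, a scaffold gene named after its value was seen, with a log2 ratio of 1.60 by CPM and -1.37 per spot. Inhibitory postsynapse genes were lower too (median -0.86 over 10 genes). Presynapse genes had a median of -0.53 over 18, with the vesicle protein gene Syp at -1.46.

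Granule cell genes that did not choose the granule spots were all lower in Ddn-rich spots. These were 5 genes with a median of -1.72, among them Calb1, a calcium buffer, at -2.59 and Plk5, a kinase-like gene, at -2.17. Sncb, which encodes beta-synuclein, had -1.53.

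Glial genes ran the other way. All 16 astrocyte genes compared were higher in Ddn-rich spots than in granule spots, 15 of them by at least 2-fold (median 3.08, and 0.12 per spot), among them Aqp4 at 4.11, Acsbg1, an acyl-CoA synthetase, at 3.62, S100b at 3.22 and the aldolase Aldoc at 3.15. All 5 oligodendrocyte genes compared were at least 2-fold higher (median 3.75), and the rest of the 12 in the panel had too few UMIs to be compared.

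The highest ratio over granule spots was that of Tshz2, a zinc finger gene, with 99 UMIs in Ddn-rich spots and 2 in granule spots (7.25, 5.36 to 10.31). It passed the minimum of 100 UMIs almost wholly through the Ddn-rich spots, so its direction was partly set by that minimum. Next came the myelin genes Mobp (4.69) and Mal (4.61), then Tpm2 (a tropomyosin, 4.57), Mgp (4.48), Apod (an apolipoprotein, 4.19), Hbb-bt (4.09), Acta2 (4.08) and Id3 (an inhibitor of transcription factors, 4.05). The lowest were Vldlr (a reelin receptor, -3.74), Tnfrsf25 (a death receptor, -3.20), Runx2 (-3.18), Pgam2 (-3.03), Ntf3 (neurotrophin-3, -2.99), Zfpm2 (-2.90), Maml2 (-2.89), Cdh9 (-2.81), P2rx5 (an ATP receptor, -2.79) and Ntn5 (-2.75), each with at most 16 UMIs in Ddn-rich spots. The interneuron peptide Sst had 139 UMIs in Ddn-rich spots and 50 in granule spots (3.09).

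Against the pyramidal spots, the dendritic list was again higher by CPM. Of 16 genes, 10 were higher and 5 of them at least 2-fold, with a median log2 ratio of 0.78, which turned to -0.67 per spot. Over all 4553 genes compared, 37.1% were higher, 8.63% at least 2-fold higher and 12.3% at least 2-fold lower, with a median of -0.23. These were 393 and 558 genes, and 536 and 340 with TMM scaling. Camk2a had 4763 CPM in Ddn-rich spots and 1581 CPM in pyramidal spots (1.59), and Psd and Ppp1r9b had 1.34 and 1.33 by CPM and -0.10 and -0.12 per spot. Nrgn was lower, with 260 CPM in Ddn-rich spots and 905 CPM in pyramidal spots (-1.80).

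Excitatory postsynapse genes had a median of -0.70 over 23 genes, 7 of them at least 2-fold lower, with the glutamate receptor genes Grm5, Gria3 and Grin1 at -1.69, -1.59 and -1.44. Inhibitory postsynapse genes had a median of -0.56 over 7. Presynapse genes had -0.95 over 20, 9 of them at least 2-fold lower, with Sv2b at -2.94, Rab3a at -2.01 and Syp at -1.78. The 6 pyramidal cell genes that did not choose the pyramidal spots were all lower (median -1.82), among them the transcription factor Pou3f1 at -2.83 and Fibcd1 at -2.60.

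The granule cell genes had a median of 0.91 over 6 against pyramidal spots, which was -0.54 per spot and -0.63 at upper columns, with C1ql2 at 2.81. All 16 astrocyte genes were higher (median 1.67), with Aqp4 at 3.25 and Mlc1 at 2.17. The 7 oligodendrocyte genes were all higher by CPM (median 1.01), which was -0.44 per spot and -0.34 against pyramidal spots of at most 10000 UMIs. Of 6 GABAergic genes, 5 were lower, among them Pvalb at -2.58 and Sst at -2.51, and Reln, named after its value was seen, was higher at 1.38 by CPM and -0.07 per spot.

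The highest ratio over pyramidal spots was that of Glis3, with 108 UMIs in Ddn-rich spots and 4 in pyramidal spots (6.20, 4.80 to 8.10). The other 9 of the 10 highest were Acta2 (4.06), Ptgds (a prostaglandin synthase of the meninges, 3.79), C4b (3.76), Hba-a2 (3.75), Myoc (3.72), Hbb-bt (3.68), Gfap (3.59), Hbb-bs (3.56) and Mgp (3.53), from vessels, blood, meninges and astrocytes. Among the 10 lowest were Kctd8 (an auxiliary subunit of GABA-B receptors, 2 UMIs in Ddn-rich spots and 103 in pyramidal spots, -4.24, -7.30 to -2.35), Chst8 (-3.69), Ndst4 (-3.63), Fezf2 (-3.53), 1110032F04Rik (-3.37), Sez6 (-3.27), Adgra1 (-3.23), Cds1 (-3.18) and Sv2b (-2.94). Glis3 passed the minimum of 100 UMIs through the Ddn-rich spots and Kctd8 through the pyramidal spots, so their directions were partly set by it.

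The Ddn-rich spots varied with their distance from the granule spots. The 29 members at 1 step had a median of 5667 UMIs, the 23 at 2 steps 3866 UMIs and the 88 at 3 or more steps 3141.5 UMIs. Granule cell genes took 2368 CPM at 1 step (2138 to 2615), 1387 CPM at 2 steps (1166 to 1637) and 693 CPM at 3 or more steps (604 to 792). The log2 ratio of 1 step over 3 or more steps was 1.77 (1.53 to 2.02). C1ql2 had 609 CPM at 1 step, 329 CPM at 2 steps and 118 CPM at 3 or more steps. Since granule spots were chosen by C1ql2, Pcdh20, Prox1 and Dsp, this gradient is partly set by their definition. Calb1, which did not choose them, had 298 CPM at 1 step and 105 CPM at 3 or more steps (1.50, 0.83 to 2.18).

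The dendritic list was nearly flat over the same distances. It took 16775 CPM at 1 step, 18685 CPM at 2 steps, 20476 CPM at 3 to 5 steps and 16629 CPM at 6 to 10 steps, and the log2 ratio of 1 step over 3 or more steps was -0.14 (-0.20 to -0.07). Its members differed in where they peaked. Camk2a had 3902, 4689, 7046 and 3649 CPM over these 4 distances, highest at 3 to 5 steps. Map2 had 3871, 3691, 2377 and 2100 CPM, highest beside the granule spots, with a log2 ratio of 1 step over 3 or more steps of 0.82 (0.67 to 0.98), against -0.43 (-0.56 to -0.29) for Camk2a and -0.50 (-0.72 to -0.29) for Ppp1r9b. Gria1 had 0.70 (0.19 to 1.20). These genes were named after their values were seen.

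Glial and vascular genes followed other courses. The astrocyte list had 16422, 22995, 26437 and 21571 CPM at 1, 2, 3 to 5 and 6 to 10 steps, and Slc1a2 had 5283, 7113, 9754 and 7624 CPM. The oligodendrocyte list had 1771 CPM at 1 step and 7772 CPM at 3 or more steps (-2.13, -2.31 to -1.96). The meningeal list went the other way, with 19502 CPM at 1 step and 5217 CPM at 3 or more steps (1.90, 1.82 to 1.99). Ptgds alone gave 2870 of the 3204 UMIs at 1 step and 1316 of the 1633 UMIs at 3 or more steps, and without it the log2 ratio was 1.01 (0.78 to 1.23). The 14 members with the most meningeal UMIs held 66.9% of those of all members, and their part in this gradient was not tested. The blood list had 7468 CPM at 1 step and 21956 CPM at 6 to 10 steps. Tshz2, the highest gene over granule spots, had 36.5, 39.9, 208 and 385 CPM over the 4 distances. Depth was lower at larger distance as given above, and its part in these gradients was not tested. No granule spot lay at upper columns, so distance is also tied to array side, and the part of each cannot be told apart.

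**Figure D5:**
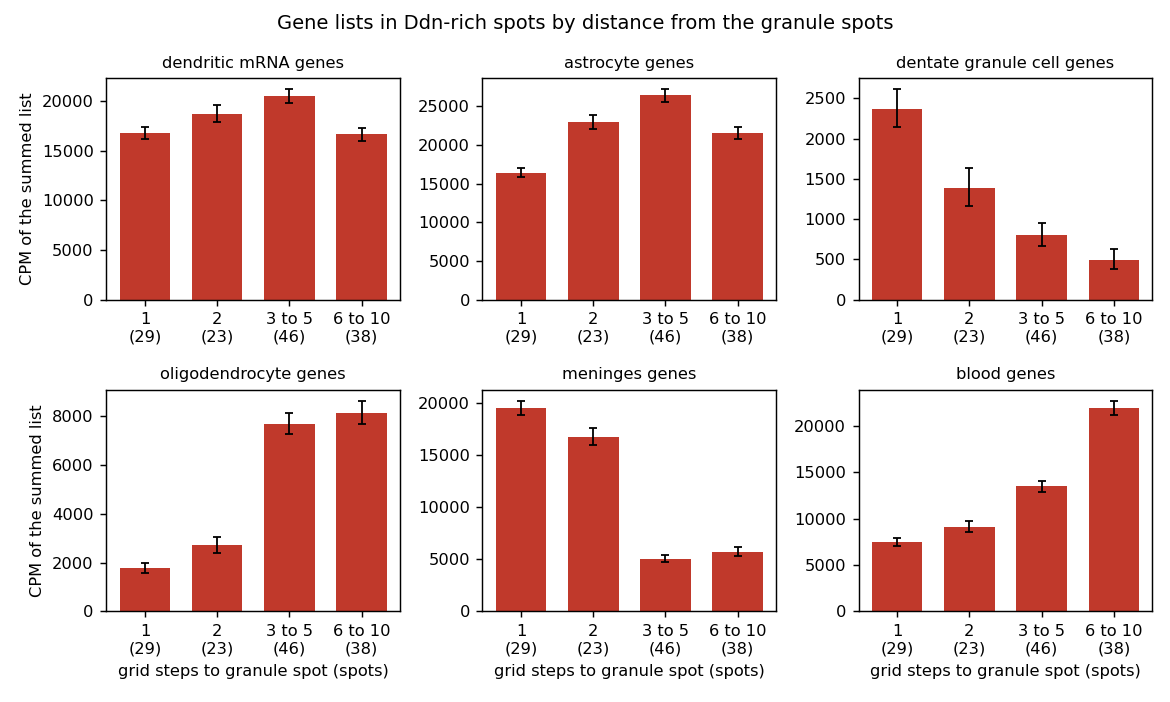
Summed CPM of 6 gene lists in Ddn-rich spots at 1, 2, 3 to 5 and 6 to 10 grid steps from the nearest granule spot (29, 23, 46 and 38 spots); bars start at 0 and whiskers are exact Poisson intervals. Granule cell and meningeal genes are highest at 1 step, oligodendrocyte and blood genes at 6 to 10 steps, and dendritic and astrocyte genes at 3 to 5 steps.

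The members were also split at array column 69, which gave 72 members at lower columns and 68 at upper columns. With no granule spot at upper columns, this split is tied to the distance above and is not a separate result. Dendritic genes took 1.70% of the UMIs of the members at lower columns and 1.94% at upper columns, and astrocyte genes 2.01% and 2.30%. Homeostatic microglia genes were at 0.0554% and 0.0550%. The sides differed more in meningeal genes, with 1.61% at lower columns and 0.492% at upper columns, and in blood genes, with 0.612% at lower columns and 2.11% at upper columns. The 14 members with the most UMIs of each list held 66.9% and 55.1% of them, and their part in these differences was not tested. Against other spots of the same side, the blood median was -0.02 at lower columns and 2.39 at upper columns, and Hba-a2 and Hbb-bs had -0.26 and -0.02 at lower columns, as did Tagln with -0.41. The oligodendrocyte median was -2.22 at lower columns and -0.41 at upper columns, while the dendritic median was 1.34 and 0.88.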

How the data were processed

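Sections were fixed in methanol, stained and hybridised with probe pairs, per the labels' protocols. The authors deposited UMI counts per gene and spot, as whole numbers without normalization. The file headers name Space Ranger 3.1.1 as the tool that made them, and mm10 is the build named in the submitters' processing notes. The sources used here give no counting settings. The matrix holds 2722 barcodes, 19465 genes and 21695663 UMIs.

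Spots were scored and chosen as described above, and counts were summed over each set. The log2 ratio of CPM has an exact conditional 95% interval (Clopper-Pearson), 0 was set to 3 counts over the set, and genes with at least 100 counts over both sets were compared. A gene with few counts in 1 set passes this minimum only through the set where it is high. The minimum thus partly sets the direction of the highest and lowest ratios. With 1 library there is no replicate and no test. Gene names come from the deposited feature table. Python 3.11.15, numpy 2.4.6, scipy 1.17.1, pandas 2.3.3 and matplotlib 3.10.9 were used, and edgeR 4.0.16 for TMM factors. The interval was tried on simulated data drawn with counting error alone, so spread between spots was not part of that check. No deconvolution and no doublet caller was run.

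The members and gene lists were chosen with earlier results of these data known. Genes named were the 14 highest and 14 lowest ratios over other spots and 10 of each over granule and over pyramidal spots, with intervals excluding 0 and without the genes that chose a set. Of each list, up to 4 of the largest ratios with such an interval were named, and genes given as not differing. Other genes are marked as named after their values were seen, as are all genes in the comparison by distance and with near spots. Alternatives varied the set sizes, count minimum, scaling, score genes, array side, depth and comparison spots. Some genes that the rule names are not reported here.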

Additional observations from a re-analysis of the deposited data

Results flagged for a closer look

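The members were limited to spots of at most 10000 UMIs, and 7 tissue spots above that bound scored at or above the lowest member. With that bound, these spots were neither members nor among the other spots. As granule spots 3 of them served, and whether any served as pyramidal spots was not counted. In the setting with no upper bound on UMIs, such spots could become members, and 134 of the members were chosen again. The 7 spots held 89329 UMIs in all, with a median of 11821 per spot, and lay a median of 7 grid steps from a granule spot. Dendritic genes took 1.16% of their UMIs, astrocyte genes 0.940% and granule cell genes 0.244%, against 1.80%, 2.13% and 0.129% in the Ddn-rich spots. No test was possible with 1 library.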

How the results depend on the processing

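All values rest on 1 library of 1 section, and the shallow spots limit lists of few UMIs such as microglia. No paired analysis was possible because there is 1 library and no result comes from a test. The comparison with granule spots at upper columns gave no value, since no granule spot lies there. Over all list medians and single genes, leaving aside counts per spot, 53 of 3799 values had the opposite sign, 17 of them where the interval of the value reported excluded 0. The cause was not tested for any change below, except that a lower count minimum adds genes of few counts and that counts per spot carry the depth of the sets.

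Against other spots, the 2-fold threshold was passed upward by 596 genes and downward by 1062. With a minimum of 20 counts 1124 were higher, and with a mean CPM of at least 20, 625 were lower. Counted per spot without scaling, 181 were higher and 2365 lower, and the dendritic, astrocyte and oligodendrocyte medians were 0.55, 0.60 and -1.82. With spots chosen by Ppp1r3c, Thrsp and Gldc, 340 were higher and 482 lower, and these medians were 0.68, 0.73 and -0.57. At lower columns they were 1.34, 0.79 and -2.22, the blood median was -0.020, and Nrgn, Hbb-bs, Hba-a2 and Tagln turned to 1.32, -0.016, -0.26 and -0.41. At upper columns the astrocyte and oligodendrocyte medians were 1.28 and -0.41. With no upper bound on UMIs, 912 genes were higher, and these medians were 1.33 and -0.75. Against other spots of matched depth the oligodendrocyte median was -1.67 and Nrgn was at 0.19. Against the near spots within 12 steps, added after the data were seen, 132 genes were higher and 275 lower, and the astrocyte median was 0.73. The mural, meningeal and blood medians turned to -0.054, -0.14 and -0.091, and Gfap, Dcn, Hba-a2, Acta2, Tagln and Nnat to -0.025, -0.0095, -0.20, -0.054, -0.34 and -0.61.

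Against granule spots, the 2-fold threshold was passed upward by 494 genes and downward by 881. With a minimum of 20 counts 1592 were higher and 1547 lower, and with a mean CPM of at least 20, 1201 were higher. With TMM scaling 442 were lower and the dendritic median was 1.31, and with median ratio scaling these were 424 and 1.33. Per spot, 12 genes were higher and 4581 lower, and the dendritic and excitatory postsynapse medians were -1.96 and -4.18. Per spot Kif5a, Ppp1r9b, Map2, Camk2a and Dlg2 turned to -0.37, -0.87, -1.43, -1.46 and -1.37. With spots chosen by Ppp1r3c, Thrsp and Gldc, the dendritic median was 0.65.

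Against pyramidal spots, the 2-fold threshold was passed upward by 393 genes and downward by 558. With a minimum of 20 counts 1297 were higher and 1131 lower, and with a mean CPM of at least 20, 962 were higher. With TMM scaling 340 were lower and the dendritic median was 1.00, and with median ratio scaling these were 329 and 1.01. Per spot, 25 genes were higher and 3707 lower, and the dendritic, granule cell and oligodendrocyte medians, Psd, Ppp1r9b and Reln turned to -0.67, -0.54, -0.44, -0.10, -0.12 and -0.072. With spots chosen by Ppp1r3c, Thrsp and Gldc, 324 genes were lower and the dendritic median was 0.51. At lower columns 225 genes were higher, and at upper columns 187 were higher and 358 lower, with a granule cell median of -0.63. Against pyramidal spots of at most 10000 UMIs, 216 genes were higher and 296 lower, and the oligodendrocyte median was -0.34. With 30 granule spots, the log2 ratio of the dendritic list at 1 step over 3 or more steps was -0.04, against -0.14 with 55.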
